A study of Mus musculus with 37 samples.

Results

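The genes described here carry glucose into the cell and break it down to lactate: the transporters Slc2a1 and Slc2a4, the hexokinases Hk1 and Hk2, and the glycolytic enzymes Pfkl, Aldoa, Pgk1, Pgam1, Eno1 and Ldha. They were followed in mammary glands of mice under 2 diets, with and without a running wheel. Members were all probe sets that the platform's gene table assigned to 1 of these 10 symbols alone. That gave 19 of 22690 probe sets on the array, for 9 of the 10 genes, and no probe set carried Eno1 in the table used here. All 19 passed the filter on low signal. A further probe set named Hk1 together with other genes and was kept apart.

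Every mouse was a C57BL/6 female of 9 weeks at randomization, and intake, weight and activity were recorded over 6 weeks. The groups were 10 mice with food ad libitum (AL), 9 that also had a running wheel (AL+EX), 9 under 30% calorie restriction (CR) and 9 under that restriction with a wheel (CR+EX). Restricted mice received 70% of the calories and all other nutrients in full. RNA of each animal came from both thoracic glands, pooled, and was hybridised to 1 Affymetrix array, which makes 37 arrays from 37 animals. The tissue was whole gland, so fewer cells of a type and less RNA per cell cannot be told apart.

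Glycolysis starts when a hexokinase phosphorylates glucose, which traps it in the cell. Phosphofructokinase then commits the sugar to the pathway, aldolase splits it, and the lower enzymes harvest ATP and pyruvate, which lactate dehydrogenase can turn into lactate. In the mammary gland, Slc2a1 (GLUT1) is the transporter of epithelium and rises with lactation, whereas Slc2a4 (GLUT4) is the insulin-regulated transporter of fat cells and muscle, both of which lie in or near a whole gland.

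Arrays differed in ways that the groups do not explain. The animal numbers in the titles fall into 4 runs of 8, 11, 10 and 8 arrays, each with all 4 groups, and the labels do not call a run a batch. Within a run the numbers go up in the order AL, AL+EX, CR, CR+EX, so place in the run and group cannot be told apart. The ratio of the 3' to the 5' control probe set of Gapdh, a sign of RNA quality, was above 2 on 5 arrays (3 AL and 2 CR+EX), 4 of them in the first run. Genes of B lymphocytes were high on 15 arrays (4, 4, 4 and 3 per group), among them all 8 of the fourth run. Calls of members and pathway genes in the averaged diet contrast that were lost without either set of arrays are named as such.

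Calorie restriction went with less Slc2a1 and Hk1 and more Pgam1 signal, and no other member passed the test. Averaged over both wheel states, 4 of the 19 member probe sets were called at an adjusted p under 0.05 (limma, Benjamini-Hochberg over all 16969 probe sets tested). Of all probe sets tested 7.31% were called, 3.43% higher and 3.88% lower. After median centring 72.2% of all calls were on the higher side, against 46.9% as analysed here. Among members 1 was higher and 3 were lower, from 3 of 9 genes. Another 2 had an unadjusted p under 0.05 without a call, so 6 of 19 were under it, beside 22.8% of all probe sets. The median difference of the 19 was -0.01 on the log2 scale, against -0.03 over all probe sets, so the members as a whole did not lean to one side.

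**Figure D1:**
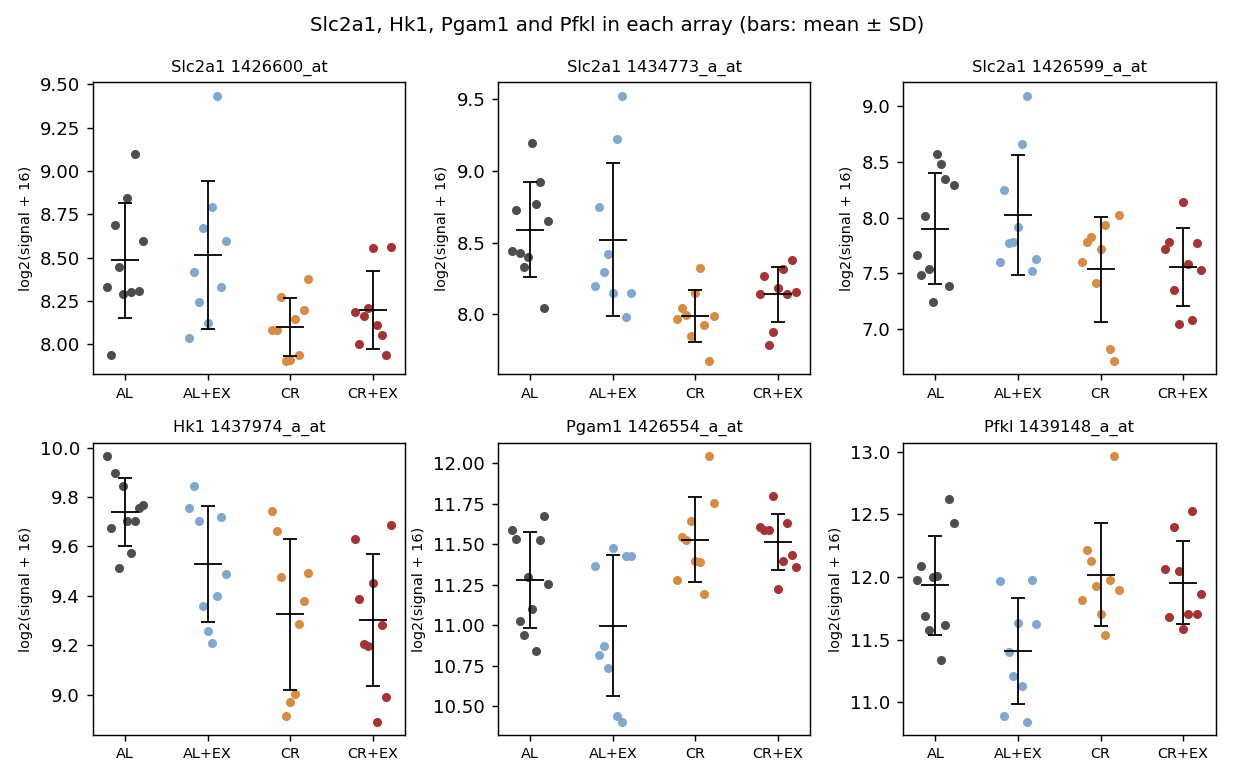
Log2(signal + 16) of each array (points) by group for the 3 probe sets of Slc2a1, 1 of Hk1, the 1 of Pgam1 and 1 of Pfkl, with the group mean and SD (bars). The restricted groups sit lower for Slc2a1 and Hk1 and higher for Pgam1, with overlap between single animals in every panel.

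The promoters of the called genes are shown first, since these genes moved in different directions. Glycolytic genes are known targets of the hypoxia factor HIF1, which binds the core ACGTG or GCGTG. Each sequence below is the 250 bases before a RefSeq start (GRCm38.p6), read 5' to 3' on the gene's strand, with these 2 cores on either strand in capitals (CACGT and CACGC are their reverse complements). They lie at chr4:119108495-119108744 (plus strand) for Slc2a1, chr10:62379909-62380158 and chr10:62340422-62340671 (minus strand) for promoters 1 and 2 of Hk1, and chr19:41911621-41911870 (plus strand) for Pgam1.
Slc2a1: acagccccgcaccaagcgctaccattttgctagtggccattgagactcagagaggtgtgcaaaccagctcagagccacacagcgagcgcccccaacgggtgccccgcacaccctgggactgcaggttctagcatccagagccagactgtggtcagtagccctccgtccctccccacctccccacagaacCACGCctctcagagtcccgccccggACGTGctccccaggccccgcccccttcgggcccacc
Hk1 promoter 1: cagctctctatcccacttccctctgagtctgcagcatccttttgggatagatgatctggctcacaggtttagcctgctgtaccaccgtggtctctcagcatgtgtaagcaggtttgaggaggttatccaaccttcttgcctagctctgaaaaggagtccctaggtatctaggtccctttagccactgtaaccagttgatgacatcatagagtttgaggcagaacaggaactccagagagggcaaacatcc
Hk1 promoter 2: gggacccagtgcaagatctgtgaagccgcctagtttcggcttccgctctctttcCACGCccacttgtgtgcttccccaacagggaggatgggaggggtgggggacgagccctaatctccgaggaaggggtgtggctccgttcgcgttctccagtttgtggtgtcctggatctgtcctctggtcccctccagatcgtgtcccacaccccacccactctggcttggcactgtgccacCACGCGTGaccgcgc
Pgam1: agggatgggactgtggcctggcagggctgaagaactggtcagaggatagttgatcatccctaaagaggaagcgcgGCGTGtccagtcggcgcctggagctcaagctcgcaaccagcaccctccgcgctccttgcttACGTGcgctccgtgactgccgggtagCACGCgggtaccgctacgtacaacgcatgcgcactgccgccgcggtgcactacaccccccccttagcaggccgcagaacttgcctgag
Slc2a1 holds 2 matches, Pgam1 3, promoter 2 of Hk1 3 and promoter 1 of Hk1 none. Over all members, Eno1 included, 13 of 15 promoters held a match, at least 1 in each of the 9 genes with an entry, while 38.6% of the 32851 promoters in the table did. Promoters 2 and 3 of Aldoa overlap and share their match, and promoters 2 and 3 of Eno1 overlap and share theirs. The share over all promoters was not matched for base content. Slc2a4 had no entry. The E box CACGTG, whose last 5 letters are also ACGTG, stood in 1 member promoter, that of Ldha, and in 6.02% of all promoters. Matches were thus found beside genes that went down, a gene that went up and genes that did not pass, and they describe letters, not bound sites.

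Slc2a1 (chromosome 4, 119108745 to 119137330, GRCm38.p6), the basal glucose transporter, had 3 probe sets, all lower under restriction. On probe set 1434773_a_at the signal ran from 247.8 over a median of 359.2 to 570.2 in AL and from 236.6 over 298.4 to 719.6 in AL+EX. It ran from 188.6 over 238.3 to 303.7 in CR and from 204.5 over 269.5 to 317.6 in CR+EX. The groups overlapped, but all 18 restricted animals lay below the median of the unrestricted ones and 6 lay below the lowest of them. The difference was -0.49 ± 0.11 (SE; 1.40-fold lower, adjusted p = 0.00551 by limma).

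On probe set 1426600_at of Slc2a1 the signal ran from 229.4 over 319.2 to 532.5 in AL and from 246.0 over 325.5 to 675.7 in AL+EX. It ran from 223.6 over 255.5 to 315.8 in CR and from 229.3 over 270.8 to 362.4 in CR+EX. Here 16 of 18 restricted animals lay below the unrestricted median. The difference was -0.35 ± 0.10 (1.28-fold lower, adjusted p = 0.0283 by limma). The call was lost without the 15 B-lymphocyte-rich arrays (-0.35, adjusted p = 0.155), after median centring (-0.29, 0.0834) and after quantile normalization (-0.30, 0.0702).

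The third probe set of Slc2a1, 1426599_a_at, scattered most, with an SD of 0.35 to 0.54 within groups on the log2 scale. Its medians were 214.8 in AL, 203.3 in AL+EX, 194.0 in CR and 175.5 in CR+EX, and single arrays ran from 89.0 to 530.4. The groups overlapped widely, with 12 of 18 restricted animals below the unrestricted median, and the difference of -0.42 ± 0.15 did not pass (adjusted p = 0.0831 by limma). It passed with the run as a block (-0.43, adjusted p = 0.0354). Across the 37 arrays the 3 probe sets followed each other with r from 0.68 to 0.81, a description of probe sets that share their arrays.

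The Slc2a1 difference was not even over the runs. For 1434773_a_at it was -0.42, -0.40, -0.99 and -0.15 in runs 1 to 4, and for 1426600_at -0.09, -0.21, -0.89 and -0.19. For 1426599_a_at it was -0.03, -0.14, -1.26 and -0.20. The sign was negative in all 4 runs on all 3 probe sets, and the third run, with 10 arrays, was far below the others on each. Without the third run the differences were -0.34 (adjusted p = 0.0928), -0.17 (0.553) and -0.13 (0.809) in limma, and no probe set of Slc2a1 was called. Whether the difference varies between runs beyond chance was not tested.

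**Figure D2:**
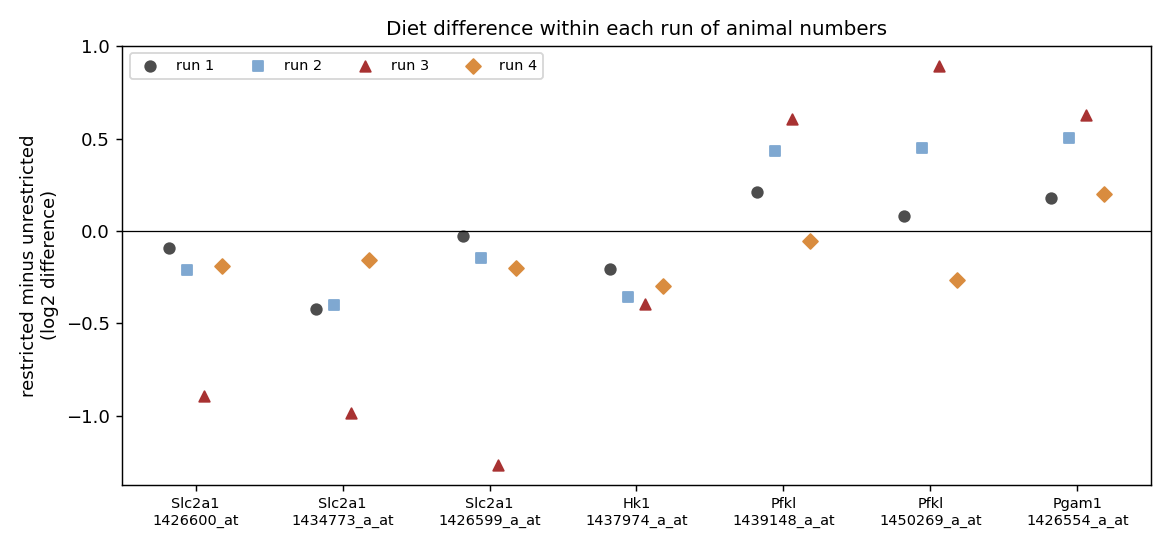
Restricted minus unrestricted log2 difference within each of the 4 runs of animal numbers, 1 symbol a run, for the probe sets of Slc2a1 and Pfkl, for 1 of Hk1 and for Pgam1. Hk1 and Pgam1 keep their sign in 4 of 4 runs, the Slc2a1 points of run 3 lie at -0.89, -0.99 and -1.26, and both Pfkl probe sets fall below 0 in run 4.

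Leaving out run 3 touched the whole array as well as the members: the count over all probe sets went from 1240 to 75, and 0 members were called. Without run 1, which has 8 arrays, the counts were 1196 and 4. Without run 2 they were 916 and 1, and without run 4 they were 1318 and 6. All calls among the members therefore rest on the third run being included, and all but that of Slc2a1 1434773_a_at also on the second.

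Hk1 (chromosome 10, 62268855 to 62379920), the hexokinase found in most tissues, was lower under restriction on 1 of its 2 probe sets. On 1437974_a_at the signal ran from 714.9 over 832.7 to 983.5 in AL and from 576.1 over 703.1 to 903.2 in AL+EX. It ran from 465.9 over 649.0 to 841.2 in CR and from 458.6 over 607.3 to 809.0 in CR+EX. The ranges overlapped, 17 of 18 restricted animals lay below the unrestricted median and 7 lay below the lowest unrestricted one. The difference was -0.32 ± 0.08 (1.25-fold lower, adjusted p = 0.0132 by limma). By run it was -0.21, -0.36, -0.40 and -0.30, the most even of the called members. It lost its call without run 2 (-0.32, adjusted p = 0.0753), without run 3 (-0.28, 0.189), after median centring (-0.26, 0.0510) and with the mean of both Hk1 probe sets (-0.24, 0.383) in limma.

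The order of the Hk1 group means was CR+EX (9.30), CR (9.32), AL+EX (9.53) and AL (9.74) on the log2 scale. No neighbours in that order differed past the threshold (adjusted p = 0.423 to 1 by limma). AL+EX lay between AL and the restricted groups, at -0.21 ± 0.11 from AL (adjusted p = 0.827). The probe set that names Hk1 with other genes gave -0.26 ± 0.10 (adjusted p = 0.0948 by limma) and cannot be assigned to Hk1.

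The second probe set of Hk1, 1420901_a_at, reached near-background signals and moved with RNA quality. On the 5 arrays with a Gapdh ratio above 2 its signal was 4.5 to 103.6, with a median of 17.1, and on the other 32 it was 43.6 to 289.0, with a median of 160.8. Its difference under restriction was -0.16 ± 0.31 (adjusted p = 0.821 by limma), with an interval of -0.79 to 0.47 that also holds the value of 1437974_a_at. Across arrays the Hk1 probe sets had r = -0.04, and 0.30 without those 5 arrays. The signal of 1437974_a_at did not go down on these arrays, at 653.4 to 983.5 against 458.6 to 938.5, and its diet difference without them was -0.34 (adjusted p = 0.0222 by limma).

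Hk2 (chromosome 6), the insulin-responsive hexokinase of muscle and fat, gave no difference past the threshold. Its medians were 3525 in AL, 3622 in AL+EX, 3767 in CR and 3745 in CR+EX, within a full range of 2659 to 5636. The diet difference was -0.04 ± 0.09, and its 95% interval of -0.23 to 0.15 leaves room for only small changes of the average in either direction. By run the difference was 0.09, 0.27, -0.33 and -0.25, so its sign was not the same in all runs. Whether it varies between runs beyond chance was not tested. The means of neighbouring groups differed by at most 0.06 on the log2 scale.

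Slc2a4 (chromosome 11), the transporter that insulin brings to the surface of fat and muscle cells, had 2 probe sets and neither was called. On 1415958_at the medians were 2787 in AL, 3223 in AL+EX, 3177 in CR and 3293 in CR+EX, and arrays ran from 1992 to 3820. The diet difference was 0.08 ± 0.08 (adjusted p = 0.636 by limma) and the wheel difference 0.09 ± 0.08 (interval -0.08 to 0.26). The groups overlapped along nearly their whole range.

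On the other Slc2a4 probe set, 1415959_at, single arrays ran from 174.1 to 4714, and this spread went with RNA quality. The 5 arrays with a high Gapdh ratio had 174.1 to 824.6 (median 307.5), against 642.7 to 4714 (median 3151) on the other 32. On 1415958_at the same 5 arrays had 1992 to 2409 against 2319 to 3820. Both Slc2a4 probe sets were thus low on those arrays, with a small overlap with the others, and those arrays belong to AL and CR+EX alone. The diet difference of 1415959_at was 0.13 ± 0.39, with an interval of -0.65 to 0.91, and says little at this spread. Without the 5 arrays the diet difference was 0.04 (adjusted p = 0.954 by limma). The group means then changed order: on the log2 scale AL went from 10.66 to 11.56 and CR+EX from 10.76 to 11.47, while AL+EX (11.18) and CR (11.34) lost no array. CR thus lay above AL with these arrays and below it without them. The part of RNA quality was not tested further.

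**Figure D3:**
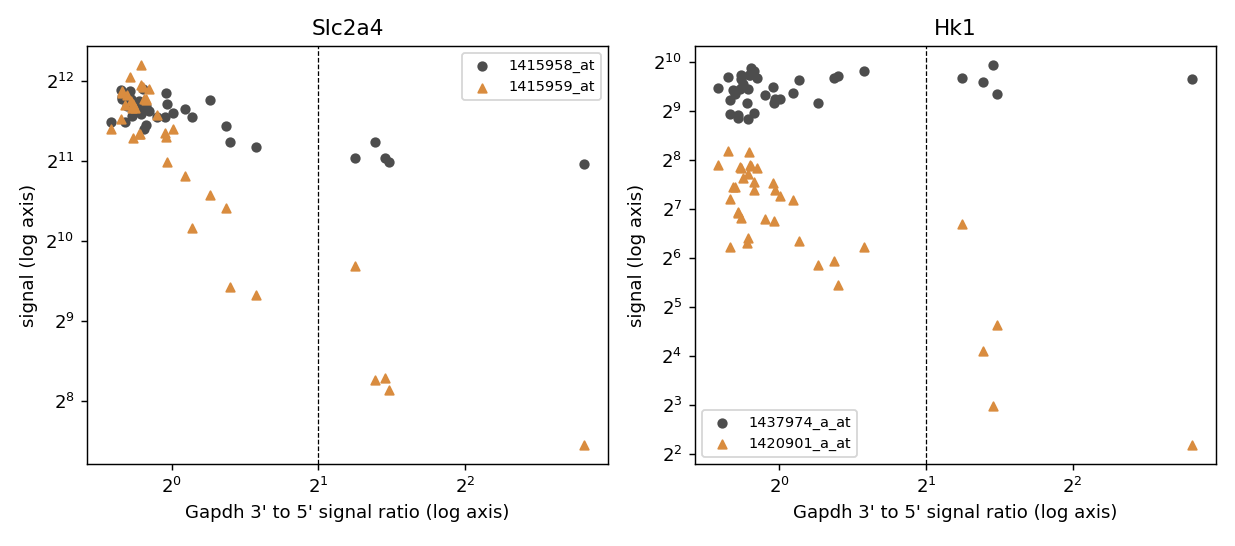
Signal of both probe sets of Slc2a4 (left) and of Hk1 (right) on each of 37 arrays against the Gapdh 3' to 5' ratio, with both axes on a log scale and a dashed line at a ratio of 2. To the right of the line 1415959_at goes down to 174.1 and 1420901_a_at to 4.5, while 1437974_a_at of Hk1 stays between 653.4 and 983.5 there.

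Pfkl (chromosome 10, 77986947 to 78009807), the liver-type phosphofructokinase of the committing step, was lowest in AL+EX on both of its probe sets. On 1439148_a_at the signal ran from 2572 over 4048 to 6308 in AL and from 1826 over 2687 to 4015 in AL+EX. It ran from 2963 over 3888 to 7969 in CR and from 3065 over 3720 to 5898 in CR+EX. The AL+EX animals reached lower than those of any other group, while the 3 remaining groups had similar medians.

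The averaged diet difference of Pfkl was 0.31 ± 0.12 on 1439148_a_at and 0.31 ± 0.16 on 1450269_a_at (adjusted p = 0.116 and 0.232 by limma). Neither passed. The probe sets differed in how it was spread over the wheel states. On 1439148_a_at CR+EX against AL+EX gave 0.55 ± 0.18 (adjusted p = 0.123) and CR against AL gave 0.08 ± 0.17 (0.875). These are not shown to differ, since the interaction was 0.46 ± 0.25 (adjusted p = 0.999 by limma, unadjusted p = 0.0723). On 1450269_a_at the values were 0.38 ± 0.23 with a wheel and 0.24 ± 0.22 without (adjusted p = 0.460 and 0.662), with an interaction of 0.14 ± 0.32 (unadjusted p = 0.661, adjusted p = 0.999 by limma). With the run as a block both Pfkl probe sets passed (adjusted p = 0.0468 and 0.0476), and both had a negative diet difference in run 4.

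Aldoa (chromosome 7), the aldolase of muscle and most other tissues, gave no diet difference past the threshold. Its 4 probe sets are all of the type whose probes may match other transcripts, which makes their assignment uncertain. On 1416921_x_at the medians were 34782 in AL, 25393 in AL+EX, 35389 in CR and 34146 in CR+EX, within 20479 to 65626. Diet differences of the 4 ran from -0.12 ± 0.16 to -0.01 ± 0.12, and every one of their intervals held 0. The 4 moved together across arrays, with r from 0.90 to 0.97.

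Pgk1 (chromosome X), the kinase of the first ATP-yielding step, had 3 probe sets with diet differences of 0.03 ± 0.15, 0.05 ± 0.12 and 0.06 ± 0.08. On 1417864_at, the one without a cross-matching suffix, the medians were 9544 in AL, 9623 in AL+EX, 9574 in CR and 9816 in CR+EX. The ranges of the 4 groups almost coincided, between 6525 and 12519. Its interval ran from -0.11 to 0.23.

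Pgam1 (chromosome 19, 41911871 to 41918665), the phosphoglycerate mutase of the lower pathway, was the only member called higher. On 1426554_a_at the signal ran from 1820 over 2465 to 3253 in AL and from 1341 over 1856 to 2833 in AL+EX. It ran from 2325 over 2933 to 4205 in CR and from 2377 over 3060 to 3543 in CR+EX. The groups overlapped, 16 of 18 restricted animals lay above the unrestricted median and 3 lay above the highest unrestricted animal. The difference was 0.38 ± 0.10 (1.31-fold higher, adjusted p = 0.0139 by limma).

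By run the Pgam1 difference was 0.18, 0.50, 0.63 and 0.20, with the same sign in 4 of 4. It lost its call without run 2 (0.34, adjusted p = 0.115) and without run 3 (0.33, 0.158) in limma. The order of the means was AL+EX, AL, CR+EX and CR, in steps of 0.28, 0.24 and 0.02 on the log2 scale, with no neighbours apart past the threshold. Pgam1 on the 5 arrays with a high Gapdh ratio was 2939 to 3109, inside the range of the others, and without them the difference was 0.43 (adjusted p = 0.0162 by limma).

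Ldha (chromosome 7), which turns pyruvate into lactate, had medians of 17943 in AL, 15762 in AL+EX, 17632 in CR and 17444 in CR+EX. Arrays ran from 12412 to 24808 and the groups overlapped. The diet difference was 0.12 ± 0.09 (interval -0.07 to 0.31, adjusted p = 0.478 by limma), positive in 4 of 4 runs.

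**Figure D4:**
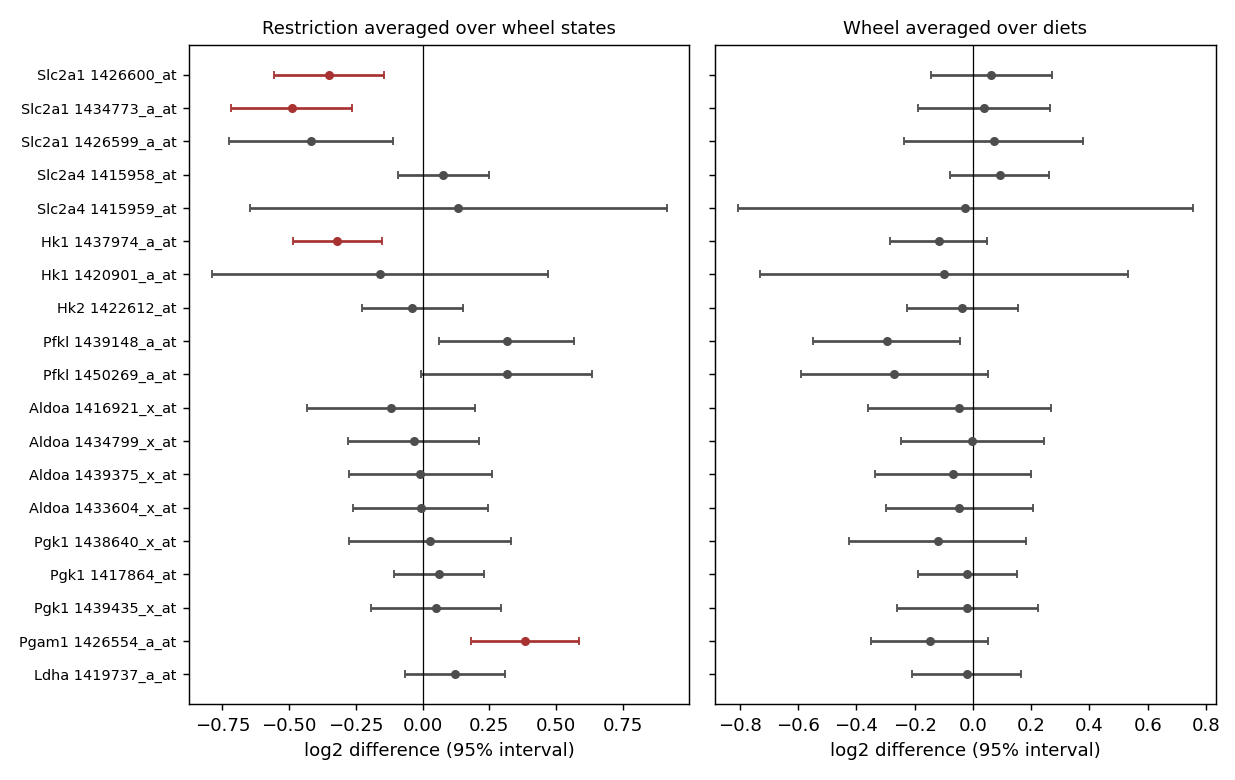
Log2 differences of the 19 member probe sets with 95% intervals, for restriction averaged over wheel states (left, called probe sets in red) and for the wheel averaged over diets (right). Slc2a1 and Hk1 have 3 red points below 0 and Pgam1 has 1 above, and no wheel difference is called.

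Between single pairs of groups, fewer members passed, as did fewer of all probe sets. In CR against AL 0.348% of all probe sets were called and 0 of 19 members. An unadjusted p under 0.05 was held by 3 members and 14.2% of all probe sets. Slc2a1 1434773_a_at was at -0.60 ± 0.16 (adjusted p = 0.0702) and Hk1 1437974_a_at at -0.42 ± 0.11 (0.0829) in limma. In CR+EX against AL+EX 1.04% were called and 0 members, while 5 members and 14.2% of all probe sets had an unadjusted p under 0.05. Pgam1 was at 0.52 ± 0.14 there (adjusted p = 0.0591 by limma). The same genes that passed in the averaged contrast thus lay near the threshold in one wheel state or the other. No interaction was called among members or over the array, where 3.26% of all probe sets and 0 of 19 members had an unadjusted p under 0.05 in limma.

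CR+EX against AL, with both treatments, called 0.436% of all probe sets and 0 members. There 2 members and 11.8% of all probe sets had an unadjusted p under 0.05. Hk1 1437974_a_at was at -0.44 ± 0.11 (adjusted p = 0.0680 by limma). CR against AL+EX called 1.61% of all probe sets and 1 member. That member was Pgam1, 1.45-fold higher in CR (0.53 ± 0.14, adjusted p = 0.0451 by limma). The call was lost in 14 of 37 fits that left out 1 array: AL+EX replicates 2, 3, 4, 6 and 7, CR replicates 2 to 9, or CR+EX replicate 6, with adjusted p up to 0.126. It was also lost, among other settings, without the filter on low signal and without any 1 of the runs. These comparisons share arrays with each other and with the averaged ones.

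The running wheel left no member past the threshold. Averaged over diets, 0% of all probe sets and 0 of 19 members were called, and 2.72% of all and 1 member had an unadjusted p under 0.05 in limma. That member was Pfkl 1439148_a_at, lower with a wheel by 0.30 ± 0.12 (unadjusted p = 0.0231, adjusted p = 1), with -0.37, -0.18, -0.15 and -0.69 by run. In AL+EX against AL 0% were called, while 5.80% of all probe sets and 2 of 19 members had an unadjusted p under 0.05. They were Pfkl 1439148_a_at (-0.53 ± 0.17, adjusted p = 0.768) and Pgam1 (-0.28 ± 0.14, adjusted p = 0.827) in limma. In CR+EX against CR 0% were called, and 0.955% of all and 0 members had an unadjusted p under 0.05 in limma.

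Of wheel differences for the transporters, Slc2a1 had 0.06 ± 0.10, 0.04 ± 0.11 and 0.07 ± 0.15 on its 3 probe sets. The intervals, -0.14 to 0.27 on 1426600_at and -0.19 to 0.27 on 1434773_a_at, did not reach the size of the diet difference of the same probe set on either side. Of the 19 wheel differences 15 were negative, with a median of -0.04 against -0.002 over all probe sets. The 19 come from 9 genes, and the probe sets of Aldoa and of Pgk1 moved together across arrays, so the count is not of independent values.

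Markers of other cells moved with some members. Muscle markers were strongly present in the gland samples: all 16 genes were measured, with median signals of 888 to 29829, and the list mean ran from 12.6 to 14.4 in AL, 13.4 to 14.8 in AL+EX, 13.7 to 14.3 in CR and 13.5 to 14.5 in CR+EX on the log2 scale. Across the 37 arrays the muscle mean followed Aldoa 1416921_x_at with r = 0.802 and rho = 0.807 (permutation p = 1e-05, the smallest that 100000 draws can give; adjusted p = 0.00045 over 90 relations). Without the 2 arrays farthest out r was 0.798, and by run it was 0.73, 0.54, 0.46 and 0.93. Ldha gave r = 0.761 and rho = 0.735 (permutation p = 1e-05, adjusted p = 0.00045), 0.704 without those 2, and 0.81, 0.63, 0.09 and 0.54 by run. Pgk1 1438640_x_at gave r = 0.684 and rho = 0.743 (permutation p = 2e-05, adjusted p = 0.00045), 0.693 without those 2, and 0.65, 0.57, 0.45 and -0.15 by run. These 3 probe sets thus varied with muscle markers, weakly for Ldha in run 3 and not for Pgk1 in run 4. Only 1 probe set per gene was compared with markers, and those of Aldoa and Pgk1 carry the cross-matching suffix. With basal epithelium r was -0.57 for Aldoa, -0.57 for Pgk1 and -0.60 for Ldha. By run it was -0.29, -0.13, -0.03 and -0.27 for Aldoa and -0.58, -0.57, -0.48 and 0.35 for Pgk1. For Ldha it was -0.42, -0.365, -0.405 and -0.16. With the 4 measured red blood cell genes r was 0.44, 0.45 and 0.48 in the order Aldoa, Pgk1, Ldha (permutation adjusted p = 0.00165 to 0.0308 over both lists). By run it was 0.75, -0.21, 0.19 and 0.34 for Aldoa, and 0.255, 0.115, 0.28 and 0.18 for Pgk1. For Ldha it was 0.595, 0.09, 0.51 and -0.11. With muscle markers, Slc2a4 1415958_at gave r = 0.485 (permutation p = 0.002, adjusted p = 0.0168) and rho = 0.36 (permutation p = 0.03, adjusted p = 0.0983). Its r was 0.325 without the 2 farthest arrays, and 0.37, 0.50, 0.25 and 0.46 by run. Over the 37 arrays the called genes had no relation to muscle markers past the threshold: for Pgam1 r was -0.10, for Hk1 -0.23 and for Slc2a1 1426600_at 0.21 (permutation adjusted p = 0.684, 0.30 and 0.341). By run r was 0.01, 0.31, -0.76 and -0.49 for Pgam1 and -0.68, -0.44, -0.03 and -0.05 for Hk1. For Slc2a1 it was -0.67, -0.62, 0.58 and -0.10. With the muscle mean as a covariate 4 members were called for the averaged diet contrast; the part of muscle was not tested further.

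Hk2 followed genes of brown fat, all 7 of which were measured, Ucp1 with a median signal of 10794. The correlation was r = 0.646 and rho = 0.643 (permutation p = 2e-05 and 4e-05, adjusted p = 0.00045 and 0.00072), 0.596 without the 2 farthest arrays, and 0.50, 0.34, 0.40 and 0.74 by run. The brown fat mean ran from 10.0 to 12.4 in AL, 10.9 to 12.1 in AL+EX, 10.4 to 12.3 in CR and 10.8 to 11.8 in CR+EX, and 0 of 7 genes were called for diet in limma. Pfkl 1439148_a_at also passed with brown fat by r (0.426) but not by rho (0.396; permutation adjusted p = 0.0398 and 0.0713). Hk2 had r = 0.376 with muscle markers, short of the threshold (permutation adjusted p = 0.0776), and 0.45, 0.48, 0.82 and 0.17 by run. With adipocyte markers Hk2 had r = -0.516 and rho = -0.578 (permutation adjusted p = 0.0111 and 0.00296).

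Hk1 1437974_a_at followed genes of proliferation, 9 of which were measured, with median signals of 26.9 to 203.9. The correlation was r = 0.462 and rho = 0.497 (permutation p = 0.004 and 0.002, adjusted p = 0.0240 and 0.0161), 0.477 without the 2 farthest arrays, and -0.15, 0.80, 0.41 and 0.61 by run, so it was not seen in the first run. The list mean was 6.51 in restricted and 6.65 in unrestricted animals on the log2 scale, and 0 of 6 tested genes were called for diet in limma. The part of these genes in the Hk1 difference was not tested. With luminal epithelium Hk1 had r = 0.311 and rho = 0.415, short of the threshold (permutation adjusted p = 0.156 and 0.0573). By run that r was 0.695, 0.69, 0.77 and -0.14. The lists of B and T lymphocytes were not among the 90 relations.

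Several marker lists held genes called for diet. Of 9 fibroblast genes 2 were called higher, Fbln1, a matrix protein (0.58, adjusted p = 0.00610 by limma), and Pcolce, an enhancer of collagen processing (0.55, 0.0244), and the list mean was 10.79 in restricted and 10.46 in unrestricted animals. Single genes were called higher among macrophage (Cd163, 0.63, adjusted p = 0.0331), muscle (Mybph, 0.83, 0.0230) and red blood cell markers (Alas2, 0.67, 0.0237) in limma. The median diet difference was 0.16 over 10 tested macrophage genes, -0.10 over 16 muscle genes and 0.26 over 2 red blood cell genes. The muscle list thus did not go with Mybph, its dimmest gene at a median signal of 888. The other tested red blood cell gene, Hba-a1, was at -0.15. Among adipocyte markers Retn was higher (0.64, 0.0371) and Lep lower (-1.39, 0.0212) in limma. The part of these cells in the members' differences was not tested, apart from the muscle covariate.

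Of the marker lists, that of luminal epithelium was also used as a covariate. Of 16 luminal genes 15 were measured and 13 tested, and 2 were called lower under restriction: Cd24a, a surface antigen (-0.71, adjusted p = 0.00296 by limma), and Wfdc2, a secreted protein (-0.67, 0.0471). The list mean, 9.21 in restricted and 9.59 in unrestricted animals on the log2 scale, ran from 8.0 to 10.27 in AL, 8.08 to 10.37 in AL+EX, 7.88 to 9.80 in CR and 8.74 to 9.87 in CR+EX. With that mean as a covariate Slc2a1 1434773_a_at stood at -0.41 (adjusted p = 0.0187) and Hk1 at -0.30 (0.0269) in limma. Pgam1 stood at 0.30 (0.0455), while Slc2a1 1426600_at lost its call (-0.32, 0.0561). The Pfkl difference on 1439148_a_at went from 0.31 to 0.16. Over arrays Pgam1 had r = -0.484 with the luminal mean and rho = -0.437 (permutation p = 0.003 and 0.007, adjusted p = 0.0185 and 0.0411), -0.363 without the 2 farthest arrays, and -0.43, -0.62, -0.60 and -0.44 by run. A negative r also passed for Ldha (-0.605), Pfkl 1439148_a_at (-0.544), Slc2a4 1415958_at (-0.492) and Aldoa 1416921_x_at (-0.446). Their permutation adjusted p were 0.00054, 0.0054, 0.016 and 0.0276. By rho, Pfkl (-0.381) and Aldoa (-0.377) did not pass (permutation adjusted p = 0.0883 for each). By run r was -0.79, -0.18, -0.15 and -0.375 for Ldha and -0.46, -0.49, -0.53 and -0.56 for Pfkl. It was -0.17, -0.67, -0.42 and -0.77 for Slc2a4. For Aldoa it was -0.33, -0.02, 0.59 and -0.17, so its sign was not the same in all runs. For Slc2a1 1426600_at r was 0.302 (permutation p = 0.07, adjusted p = 0.169) and rho 0.44 (permutation p = 0.007, adjusted p = 0.0394), with r = 0.335 without the 2 farthest arrays and 0.84, 0.38, 0.76 and 0.34 by run.

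Genes most like the called members over the 37 arrays were taken as the 3 with the highest Pearson correlation, a description with no test. For Slc2a1 1434773_a_at they were Utp11 (0.882), Smad4 (0.882) and Supt5 (0.874), and for 1426600_at Mtf2 (0.813), B4galt1 (0.807) and Defb1 (0.779). These 2 sets of 3 genes shared no gene. For Hk1 they were Slc9a3r1 (0.862), Fam102a (0.766) and Actn1 (0.732), and for Pgam1 Aspa (0.818), Pygl (0.814) and Dlat (0.812). With each group centred on its own mean these values were 0.66 to 0.83.

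The wider pathway was read from 9 lists, given as genes past the threshold in the averaged diet contrast. Over the array 7.31% of tested probe sets were called in that contrast, and the lists differed in probe sets per gene. Of the other glycolytic steps and isoenzymes 0 of 10 tested genes were called, and the smallest p belonged to Tpi1, the triose isomerase (0.25 ± 0.09, adjusted p = 0.0852 by limma). Median differences of the list and of all probe sets were 0.06 and -0.03. The rest of the glycolytic chain thus gave no call beside Hk1 and Pgam1.

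Of the other hexose transporters 1 of 6 was higher: Slc2a5, the fructose transporter, by 0.97 ± 0.18 (1.96-fold, adjusted p = 0.000815 by limma), with medians of 325.6 in AL, 257.2 in AL+EX, 618.7 in CR and 532.0 in CR+EX. Its direction was opposite to that of Slc2a1. In the list of flux control 1 of 8 was higher, Pdk1, the kinase that shuts pyruvate dehydrogenase (0.53 ± 0.11, adjusted p = 0.00189), whose other probe set gave 0.35 ± 0.12 (0.0665). Of genes for lactate and pyruvate transport 2 of 5 were higher: Mpc1, a subunit of the mitochondrial pyruvate carrier (0.38 ± 0.08, 0.00266), and the monocarboxylate transporter Slc16a7 (0.91 ± 0.28, 0.0423). Of gluconeogenic genes 1 of 5 was higher, Pcx, the pyruvate carboxylase (0.56 ± 0.13, 0.00571). By probe set, in the order given, these lists had 1 of 7, 1 of 13, 2 of 5 and 1 of 6 called.

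Glycogen metabolism had the most calls by count, with 4 of 14 genes higher and 1 lower. Of its 22 tested probe sets 5 were called higher and 1 lower, while 7.31% were called over the array. Higher were Pygl, the liver-type phosphorylase (0.51 ± 0.11, adjusted p = 0.00379 by limma), Gbe1, the branching enzyme (0.57 ± 0.15, 0.0150), and Ppp1r3c, a targeting subunit that brings phosphatase to glycogen (0.80 ± 0.21, 0.0149). Gsk3b, a kinase that inhibits glycogen synthase, was lower (-0.56 ± 0.14, 0.00929). The median of the list's probe sets was -0.06, so the list as a whole did not lean to the higher side.

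Among transcription factors of glycolysis and of Slc2a4 1 of 14 genes was higher and 1 lower: Mlxipl, the glucose-sensing factor ChREBP (0.29 ± 0.09, adjusted p = 0.0307 by limma), and the muscle factor Mef2d (-0.42 ± 0.09, 0.00231). The other probe set of Mef2d gave -0.08 ± 0.14 (adjusted p = 0.79 by limma). Genes for traffic of the Slc2a4 vesicle had 0 of 10 called, with Rab10, a GTPase of that vesicle, nearest (0.26 ± 0.10, 0.128). Hypoxia targets outside glycolysis had 1 of 12 lower, the collagen hydroxylase subunit P4ha2 (-0.43 ± 0.14, 0.0475), and none higher. List medians were 0.00, 0.06 and 0.00. By probe set, 1 of 31 was called higher and 1 lower among the factors. Vesicle traffic had 0 of 22 called and hypoxia targets 1 of 23, with 7.31% called over the array. None of the 9 lists had a gene called for the wheel in limma, where 0% of the array was called.

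The calls in these lists also rested on the third run. Without the 15 B-lymphocyte-rich arrays 7 of the 14 called probe sets lost their call: Mef2d (-0.36, adjusted p = 0.0704 by limma), Gsk3b (-0.50, 0.0958), Pcx (0.39, 0.0887), Gbe1 (0.60, 0.0652), Pgm1 (0.36, 0.0987), Slc16a7 (0.82, 0.0906) and P4ha2 (-0.36, 0.231). Without the 5 arrays with a high Gapdh ratio 5 lost it: Mlxipl (0.29, 0.0608), Slc16a7 (1.02, 0.0550), 1 of 2 probe sets of Ppp1r3c (0.40, 0.0690), Pgm1 (0.21, 0.176) and P4ha2 (-0.45, 0.0664). All 14 called probe sets kept their sign in every setting in which they were fitted, but without the third run 1 of 14 passed, Slc2a5 (0.87, adjusted p = 0.0460 by limma). Slc2a5 was called in 19 of 19 settings and in all 37 fits without 1 array. Pdk1, Mpc1 and Pygl were called in 18 of 19, Mef2d, Gsk3b and Pcx in 17, Gbe1 in 16 and Mlxipl in 12. The weakest were P4ha2, called in 8 of 19 settings and in 16 of 37 fits without 1 array, and Slc16a7, in 11 of 18 and 17 of 37. Ppp1r3c was called in 16 and 11 of 19 on its 2 probe sets, and Pgm1 in 12. Of the 14, the fructose transporter alone kept its call in all settings run.

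**Figure D5:**
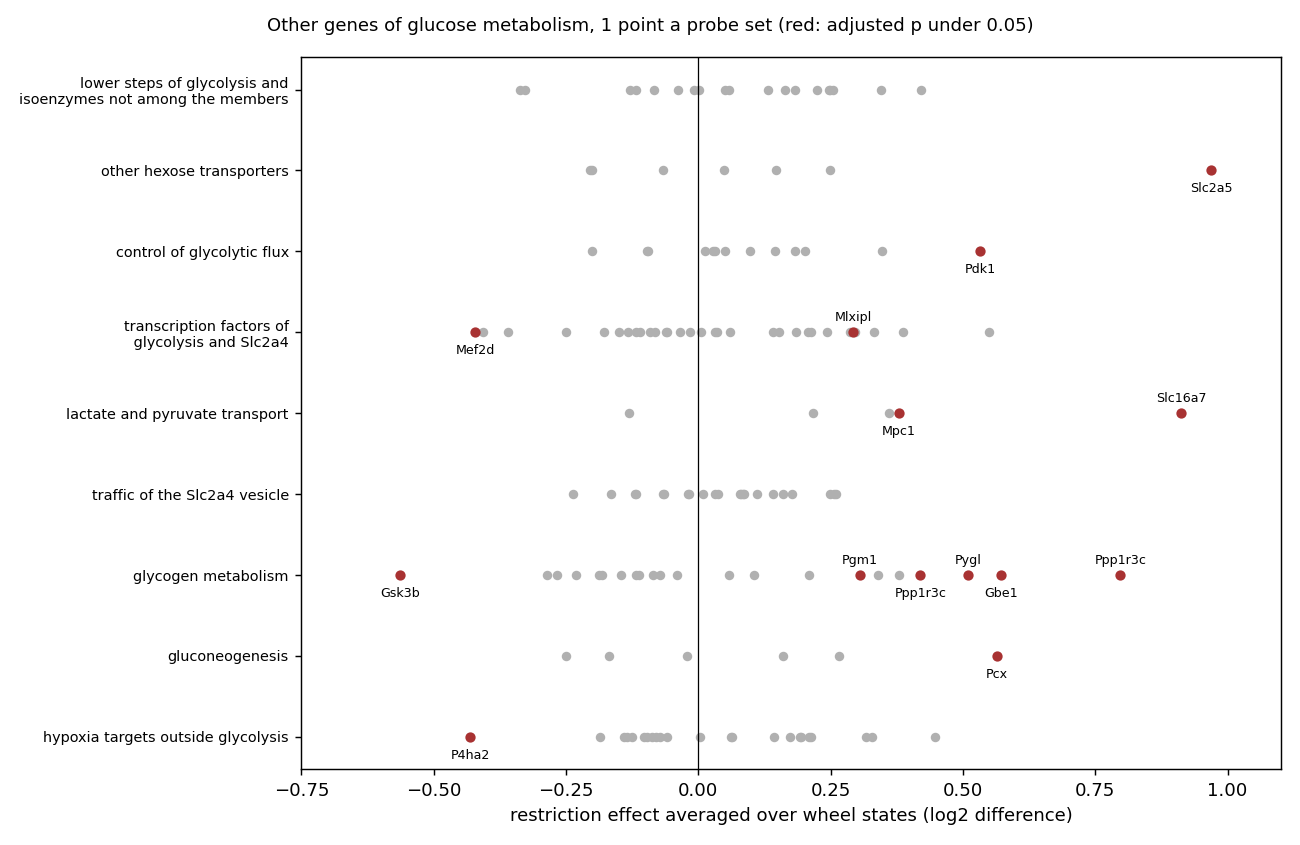
Averaged diet difference (log2) of each tested probe set in 9 lists of glucose metabolism, 1 point a probe set, with called probe sets in red and named. Red points lie on the higher side for Slc2a5, Pdk1, Mlxipl, Mpc1, Slc16a7, Pygl, Gbe1, Ppp1r3c, Pgm1 and Pcx and on the lower side for Mef2d, Gsk3b and P4ha2.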

How the data were processed

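Affymetrix signal intensity from 37 arrays was used as deposited by the authors, unlogged. GCOS version 1 stands in the submitters' processing notes; the signal algorithm is not given in the sources used here. A mean trimmed by 2% at each end lay near 500.2 on every array, so nothing was rescaled. Signals were analysed as log2(signal + 16), without 64 control probe sets and the 25% of probe sets with the lowest mean (16969 tested). Group means were fitted in limma 3.58.1 (R 4.3.3) with a variance trend, 33 residual degrees of freedom and 9 contrasts. Tests were two-sided, with Benjamini-Hochberg adjustment within a contrast and a threshold of 0.05. Values after ± are standard errors, and intervals are 95%. The fit was tested on simulated data. Arrays carry no counts, so their number limits the precision.

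Runs were cut from the animal numbers in steps of 24. Members and gene lists were chosen with earlier results of these data known. The genes named were all members, up to 4 called genes of each list by smallest p (otherwise the nearest), and the 3 genes most like each called member. The figure also names Pgm1, the fifth called glycogen gene. Gene positions and promoters are from RefSeq (GRCm38.p6). Figures were drawn with matplotlib 3.10.9. Alternatives covered the pseudocount, filter, scaling, probe sets of a gene, variances, run, marker levels and arrays left out.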

Additional observations from a re-analysis of the deposited data

Results flagged for a closer look

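Of 76 groups of arrays checked for a single value far from the rest, 2 held one, and chance alone flags about 1 in 20. In AL+EX, replicate 2 had a Slc2a4 signal of 2319 on 1415958_at, below the 2990 to 3804 of the other 8 animals. Its Gapdh 3' to 5' ratio was 1.49 and it belongs to the first run. In CR, replicate 8 had a Pfkl signal of 7969 (7968.6 as deposited) on 1439148_a_at, above the 2963 to 4745 of the others. It belongs to the fourth run, and its Gapdh ratio was 0.81.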

How the results depend on the processing

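Counts are of the 19 member probe sets called. For the averaged diet contrast, 4 in the report, the count was 2 after median centring, 2 with the mean of the probe sets of each gene (9 genes), 7 with the run as a block, 1 without the second run and 0 without the third run; it stayed at 4 in every fit without 1 array. For CR against AL, 0 in the report, it was 1 with array weights, 1 with the B lymphocyte mean and 1 with the muscle mean as a covariate, and 2 with the run block. For CR+EX against AL+EX, 0 in the report, it was 1 with the dimmer 50% left out, after median centring, with the brightest probe set, with the mean of probe sets and with array weights, and 2 with the run block, the B lymphocyte covariate or without the fourth run. For CR+EX against AL, 0 in the report, it was 1 with the run block or the muscle covariate. For CR against AL+EX, 1 in the report, it was 5 with the run block, 3 with the B lymphocyte covariate and 2 after median centring. It was 0 without a filter, after quantile normalization, with no variance trend, without the 15 B-lymphocyte-rich arrays, with the luminal covariate, without any 1 of the 4 runs, and with only the groups compared.

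Leaving out 1 array gave 0 to 1 for CR against AL (1 without AL replicate 9, AL+EX replicate 7 or CR replicate 1), 0 to 1 for CR+EX against AL+EX (1 without AL+EX replicate 5, 8 or 9 or CR+EX replicate 5), 0 to 1 for CR+EX against AL (1 without CR+EX replicate 9) and 0 to 3 for CR against AL+EX (3 without AL+EX replicate 8, 2 without AL+EX replicate 1). Slc2a1 1426600_at was called in 15 of 21 settings, Slc2a1 1434773_a_at in 19 of 20, Hk1 1437974_a_at in 17 of 21 and Pgam1 in 19 of 21, and these 4 kept their sign in every setting run. Of all calls in the averaged diet contrast 46.9% were higher, against 72.2% after median centring and 62.7% without the third run. The run and marker settings other than the run block and the B lymphocyte ones were added after the data were seen. The causes were not tested. No paired analysis was possible because the labels give no replicate number shared between groups. Signal near background limits 1420901_a_at of Hk1, and the number of arrays limits every interval.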
